A study of Macaca fascicularis with 2 samples.

Results

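Plasma cells were examined in the testis of the cynomolgus monkey (Macaca fascicularis) after a testis had been placed in the abdomen. They were chosen by measured values, as barcodes with at least 500 detected genes, at least 2 UMIs of MZB1, at least 10 UMIs of JCHAIN and MZB1 together per 10000 UMIs, and fewer than 30 UMIs of DCN per 10000. The rule found 73 plasma cells among 12352 barcodes of the abdominal testis that passed the gene minimum, and 27353 barcodes passed it in both testes. MZB1 encodes a chaperone of antibody assembly, JCHAIN the joining chain of polymeric antibodies, and DCN decorin, a matrix protein of stromal cells.

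The study compared testis in the abdomen (UAT, a model of unilateral cryptorchidism) with the contralateral testis left in the scrotum (CST). Single-cell RNA was measured by the 10x Genomics droplet method with version 3 chemistry for 3' ends. Each position had 1 library, so no test between positions was possible. The number of animals, their age and the time since surgery were not given in the sources used here, and cells of 1 library are not replicates.

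Plasma cells are the end stage of the B cell lineage and secrete antibody. Their differentiation is driven by IRF4, PRDM1 and XBP1, it silences PAX5 and most B cell surface genes, and it enlarges the endoplasmic reticulum (ER), where heavy and light chains are folded, joined and glycosylated. A plasma cell uses 1 heavy and 1 light chain, and it lives on signals from its surroundings, among them the cytokine APRIL (TNFSF13), which binds BCMA (TNFRSF17), and the chemokine CXCL12, which binds CXCR4. The interstitium of the testis is home to macrophages and few other leukocytes.

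The UAT library held 12564 barcodes and 111047299 UMIs, and the CST library 15952 barcodes and 197225937 UMIs. The libraries shared 50 barcodes, none of them a plasma cell of either. The comparison groups of UAT, set by marker UMIs, were 393 T cells, 628 macrophages, 1435 endothelial cells and 6955 stromal cells. Barcodes grouped as B cells, with at least 2 UMIs of MS4A1, numbered 8. Levels below are CPM of UMIs summed over a group, with 95% intervals that cover counting error only.

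Plasma cells made up 0.591% of the UAT barcodes (Clopper-Pearson interval 0.464 to 0.743%). In CST the same rule found 4 of 15001 barcodes, or 0.0267% (0.00727 to 0.0683%). Outside the stromal group the share was 1.35% (1.06 to 1.70%) of 5397 UAT barcodes and 0.0316% of 12661 CST barcodes. Set against macrophages alone, plasma cells were 10.4% of 701 UAT barcodes (8.25 to 12.9%) and 3.88% of 103 CST barcodes (1.07 to 9.65%), and these intervals overlap. In CST 11301 of the 15001 barcodes belonged to none of the groups named here and held germ cell genes at a median of 81.4 per 10000 UMIs, so the first 2 shares also depend on how many germ cells each suspension held. A share of all leukocytes was not read, because the barcodes that the marker rules called B or T cells in CST held germ cell genes at medians of 859 and 1998 per 10000 UMIs, against 40.3 in macrophages there and 0 in each UAT group.

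The plasma cells were deep and rich in RNA. They held from 1618 to 56296 UMIs, with a median of 21138, against a median of 7244 in the other UAT barcodes. Detected genes ranged from 519 to 5253 (median 2949). Mitochondrial UMIs took a median of 1.59% (0.217 to 19.2%), against 5.77% in the other barcodes, and reached 10% in 3 plasma cells. These shares are of all UMIs, so the leading features described below lower them in plasma cells. Together the plasma cells held 1817927 UMIs, which is 1.64% of the library's kept UMIs from 0.591% of its barcodes. The doublet score would have removed 4 of the 73.

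At the edge of the rule, the 3 members closest to the threshold had 10.1, 10.2 and 10.5 UMIs of JCHAIN and MZB1 per 10000, and the closest barcodes outside had 9.92, 9.89 and 9.76. There were 28 barcodes with at least 2 MZB1 UMIs that lay under this threshold, and 3 were left out by DCN alone. MZB1 ranged from 2.21 to 69.7 per 10000 UMIs (median 14.7) among members, with 4 of them at 2 to 5 UMIs.

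The label was checked against marker lists. All 15 plasma cell markers were detected, 11 of them in at least 50% of the members, and their summed level ran from 34.2 to 758 per 10000 UMIs (median 114). This list holds the genes of the rule. B cell markers had a median of 0 and a highest value of 3.08, and 5 of the 9 (MS4A1, PAX5, CD22, VPREB3 and FCER2) had no UMI in any member. T cell markers had a median of 0 and reached 9.75 in 1 cell, with 3 of 7 genes at 0, and 5 of 6 NK markers were at 0. The T cell marker CD3D had 83 UMIs in 8 members, 90.4% of them in 5 members. It stood at 45.7 CPM in members, 13.7 CPM in all other UAT barcodes and 853 CPM in T cells. Macrophage markers had a median of 0 and a highest value of 53.5, with none of 8 at 0. Of the 8 germ cell markers 6 were at 0. Stromal markers had a median of 1.16 and a highest value of 31.7, and DCN gave a UMI in 59 of the 73 cells but 10 or more UMIs in only 6.

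CD79A, the signalling chain of the B cell receptor named among the markers, had few UMIs in any group. In all kept UAT barcodes it had 33 UMIs, with 1 in the 8 barcodes grouped as B cells. Of the plasma cells 8 had a UMI, and CD79A stood at 4.40 CPM there against 0.23 CPM in the others. This is a ratio of 19.2 (7.48 to 43.9), from few UMIs. Its partner CD79B stood at 35.8 CPM in plasma cells and 0.90 CPM in the others. MZB1 and JCHAIN were used to choose the cells and give the label no support of their own.

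1 member, singled out after its values were seen, carried markers of plasmacytoid dendritic cells. It had 114 UMIs of GZMB, 32 of TCF4, 26 of IRF8 and 11 of LILRA4, beside 36 of JCHAIN and 4 of MZB1. TNFRSF17, SDC1 and PRDM1 were at 0 in it, and so were 4 of the 9 dendritic markers measured (IL3RA, CLEC4C, PLD4 and PTCRA). Its doublet score, 0.98, was the highest of the 73 and would have removed it, and it held 24 UMIs of DCN. It is the only member with GZMB, and its share of the leading features described below is the lowest of all, 0.0827% of UMIs.

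Most of the UMIs of the plasma cells came from 5 features that the files name only by gene number. LOC102133296 took 31.7% of all their UMIs, LOC102141751 8.35%, LOC102142558 6.87%, LOC102126084 3.94% and LOC107126411 2.28%. The next feature, the ribosomal gene RPLP1, took 1.04%. The 5 together held 53.1% of plasma cell UMIs and 0.472% of the UMIs of other barcodes. Per cell they held from 0.0827 to 77.1%, with a median of 54.5%, and 38 of 73 cells were above 50%.

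A RefSeq gene table of the species identifies 2 of these 5. LOC102142558 is an antibody constant region whose neighbours (CRIP1, TEDC1 and TMEM121) flank the heavy chain locus. LOC102126084 is listed as a variable segment beside IGLL5 and ZNF280B, which places it in the lambda light chain locus. It reached 36.5% of a cell's UMIs, whereas no other lambda segment of the table passed 0.99% of any cell's UMIs. Whether its listing as a variable segment is right was not tested. The other 3 are absent from the table and are described by number only. Features that the table assigns to the heavy chain locus held 6.90% of plasma cell UMIs as constant regions (5 features) and 0.0831% as variable segments (19 features). Features listed as lambda variable segments held 4.06% (7 features), of which LOC102126084 alone held 3.94%. Kappa variable segments held 0.00715% (9 features). Near-identical antibody genes can share reads, so the split between them is uncertain.

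LOC102142558 and LOC102141751 divided the plasma cells. The limits used here, 5% of UMIs for each feature and 9% for LOC102141751, were chosen after the values were seen. LOC102142558 was high in 33 cells and LOC102141751 in 31, with no cell high in both and 9 high in neither. In the LOC102142558 group that feature ran from 5.75 to 21.8% of UMIs (median 12.01%), and in the LOC102141751 group from 0.10 to 0.66% (median 0.24%). LOC102141751 ran from 9.96 to 40.8% (median 17.8%) in its own group and from 0.75 to 5.18% (median 2.51%) in the other, so neither feature overlapped between the groups. The groups were cut on these values, and the gap is a description.

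In the 9 remaining cells another feature was higher, LOC102130108, which is not in the table. Its share had a median of 2.42% there (0 to 3.77%), 0.06% in the LOC102142558 group (0.01 to 2.16%) and 0.34% in the LOC102141751 group (0.13 to 0.86%). The 9 cells were shallower, with a median of 12622 UMIs against 32475 and 17895, and their mitochondrial share was higher, with a median of 3.09% against 1.31 and 1.73%. The mitochondrial share is of all UMIs, and so is lower where the leading features take more. The dendritic-marker cell is one of the 9 and had no UMI of LOC102130108.

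LOC102133296 and LOC102126084 were not high in the same cells either. LOC102133296 was high in 38 cells, where it ran from 5.78 to 62.1% of UMIs (median 47.3%), and did not pass 1.25% in the 19 cells high in LOC102126084. LOC102126084 ran from 7.05 to 36.5% (median 19.2%) in its 19 cells and did not pass 0.26% in the LOC102133296 group. LOC107126411 was high alone in 1 cell, at 48.4% of its UMIs, and high beside LOC102126084 in 3. The last 15 cells were high in none of the 3. Over the 73 cells, Spearman's rho was −0.77 between LOC102133296 and LOC102126084 and −0.51 between LOC102142558 and LOC102141751. These cells share 1 library, and shares of one total are bound to trade off. The LOC102133296 cells were also deeper, with a median of 34019.5 UMIs against 16816 in the LOC102126084 cells and 15341 in the 15 with none.

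**Figure D1:**
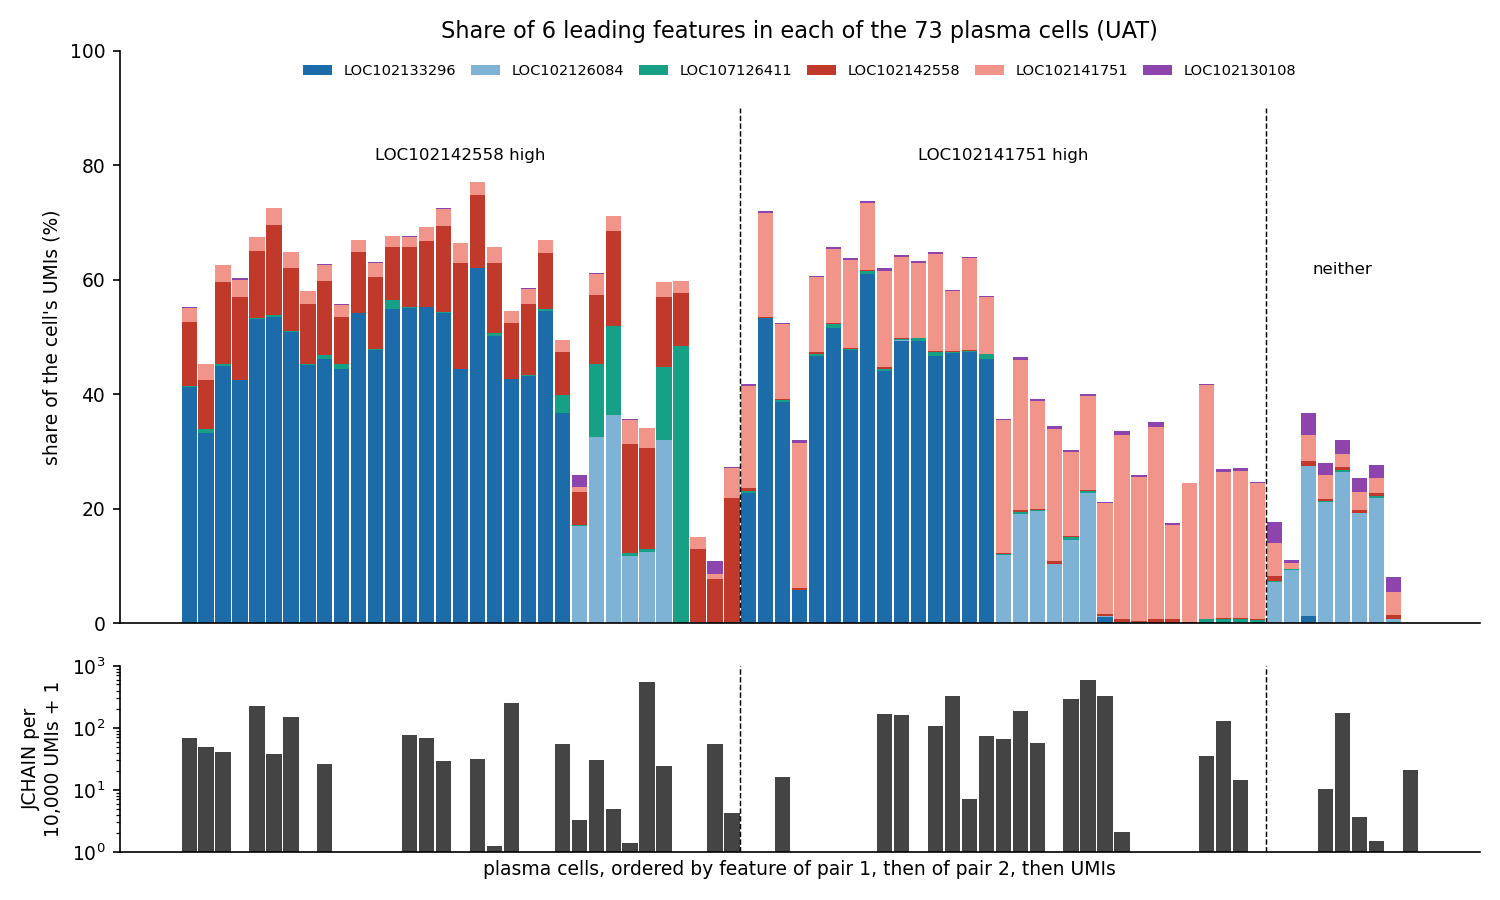
Each bar is 1 of the 73 UAT plasma cells, stacked by the percent of its UMIs in 6 leading features, with JCHAIN per 10,000 UMIs (plus 1, log axis) below. Pair 1 is LOC102142558 and LOC102141751, pair 2 is LOC102133296 and LOC102126084, and dashed lines separate the 33, 31 and 9 cells sorted by pair 1. The blue LOC102133296 block is high in 38 cells of the first 2 groups and in none of the 9.

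The pairings were uneven. LOC102142558 stood with LOC102133296 in 23 cells, with LOC102126084 in 6, with LOC107126411 alone in 1 and with none of the 3 in 3. LOC102141751 stood with LOC102133296 in 15 cells, with LOC102126084 in 6 and with none in 10. The 9 cells with neither of the first pair had LOC102126084 in 7 and none in 2, and LOC102133296 in no case. Each cell thus fell in 1 of 9 combinations, and the most frequent held 23 of 73.

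**Figure D2:**
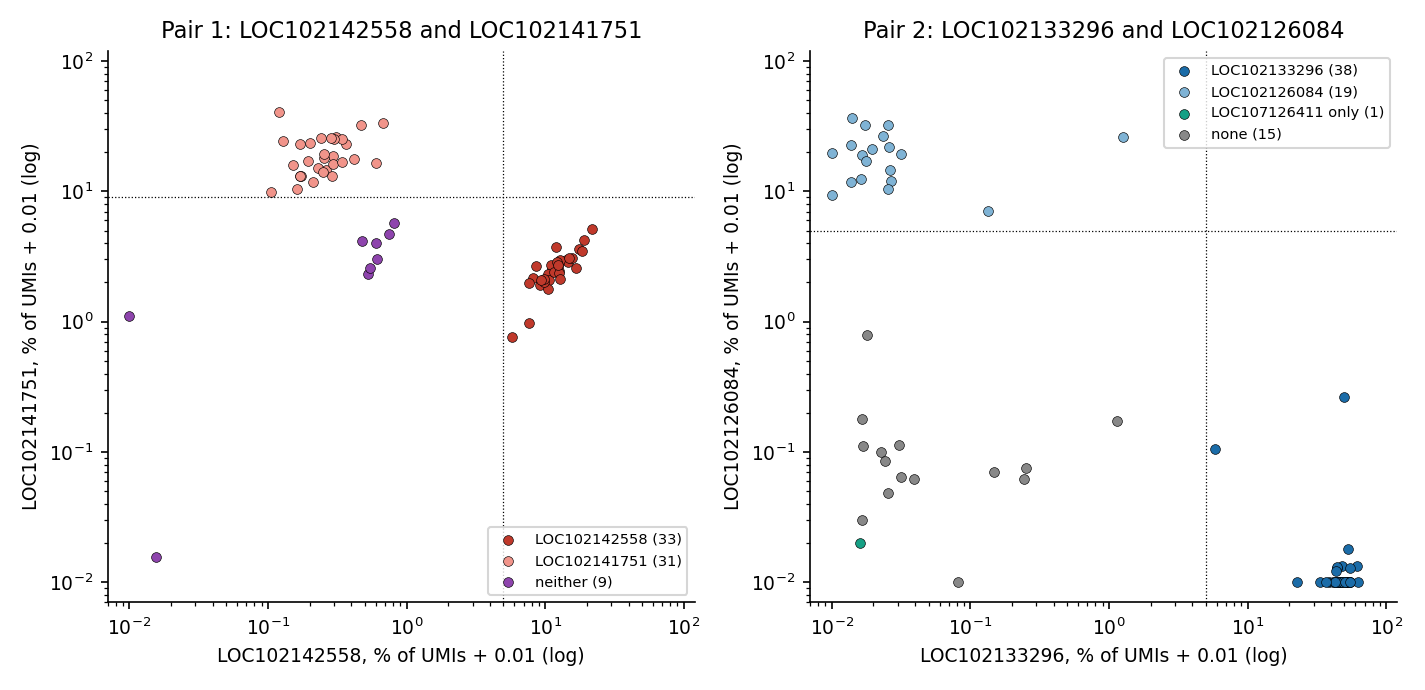
Each point is 1 of the 73 plasma cells, and both axes give percent of the cell's UMIs plus 0.01 on log scales, for LOC102142558 and LOC102141751 at left and LOC102133296 and LOC102126084 at right. Dotted lines are the limits of 5% and 9%, the upper right corner is empty in both panels, and counts of cells stand in the legends.

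Variable segments varied from cell to cell. LOC102126660, of the heavy chain locus, had 721 UMIs in 9 cells, with 37.7% of them in 1 cell. LOC102136297, of the lambda locus, had 1218 UMIs in 34 cells. LOC102119605, also lambda, had 472 UMIs in 15 cells. Segments missing from the annotation or too far from the 3' end are not seen by this method.

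JCHAIN differed widely from one plasma cell to the next. It ran from 0 to 592 per 10000 UMIs with a median of 3.94, and 29 of the 73 cells had no UMI. At least 10 per 10000 was found in 34 cells and at least 100 in 14, and the 5 cells with most JCHAIN held 53.3% of its UMIs. The rule sums JCHAIN with MZB1, so a cell without JCHAIN entered only with enough MZB1. High JCHAIN was found in 17 of 33 LOC102142558 cells, 15 of 31 LOC102141751 cells and 2 of 9 others. By the second pair it was found in 19 of 38, 9 of 19 and, with none of the 3 features, 6 of 15. JCHAIN was thus found in some cells and not in others of each of these groups. As a description, since the rule used the gene, detection was also read after thinning each cell to 1000 UMIs. JCHAIN was then seen in 49.3% of plasma cells, 0.51% of 390 T cells and 1.01% of 495 stromal cells, from 500 drawn. Before thinning it was seen in 60.3% of plasma cells, 2.04% of all 393 T cells and 2.77% of all 6955 stromal cells. The median depths of these full groups were 21138, 3137 and 7729 UMIs.

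CD160, a glycolipid-anchored receptor known from NK and T cells, had the highest rank correlation with JCHAIN across the plasma cells. JCHAIN is a gene of the rule and the 73 cells share 1 library, so this is a description. Among 658 genes with a UMI in at least 75% of plasma cells and at least 100 UMIs, a likeness rule chosen after the data were seen, Spearman's rho with JCHAIN over the 73 cells was highest for CD160 (0.54), then for TXNDC5 (0.47), a disulphide isomerase, and EMP3 (0.39). It was −0.13 for XBP1, and 0.11 between JCHAIN and total UMIs. Of the 34 cells with at least 10 JCHAIN UMIs per 10000, 33 had a CD160 UMI, at 534 CPM and a median of 4.05 per 10000. Of the other 39, 28 had one, at 208 CPM and a median of 1.54. The median depths were 24618.5 and 20953 UMIs. The ranges of the groups overlap.

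**Figure D3:**
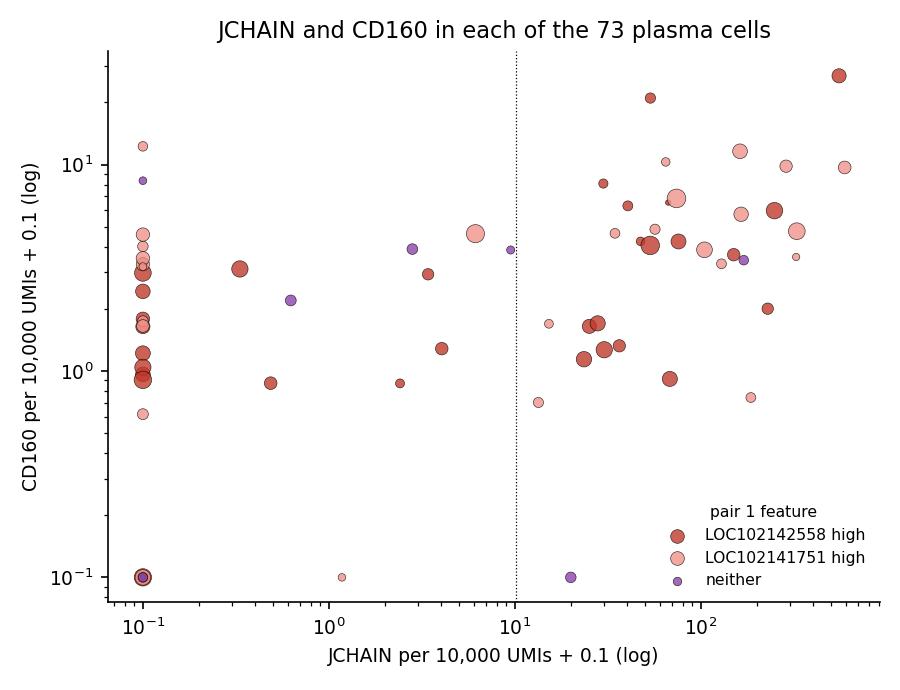
Each point is 1 of the 73 plasma cells, with JCHAIN and CD160 in UMIs per 10,000 plus 0.1 on log axes, coloured by the feature of pair 1 (LOC102142558 and LOC102141751) and sized by total UMIs. Right of the dotted line, at 10 JCHAIN UMIs per 10,000, 33 of 34 cells have CD160, and 28 of 39 have it to the left.

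CD160 stood at 369 CPM in the plasma cells as a whole and at 1.63 CPM in all other UAT barcodes, a ratio of 226 (191 to 268). Those others include 31 barcodes rich in the 5 leading features, described below. CD160 stood at 138 CPM in these 31, which lowers the ratio. The 393 T cells held 18 UMIs of CD160 in all. After the same thinning it was seen in 34.2% of plasma cells, 1.03% of the 390 T cells and 0.20% of the 495 drawn stromal cells. Before thinning it was seen in 83.6% of plasma cells, 2.04% of all 393 T cells and 0.19% of all 6955 stromal cells. NK markers gave almost no signal in the plasma cells: NKG7 had 1 UMI, and GNLY, KLRB1, KLRD1, NCR1 and PRF1 had none.

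**Figure D4:**
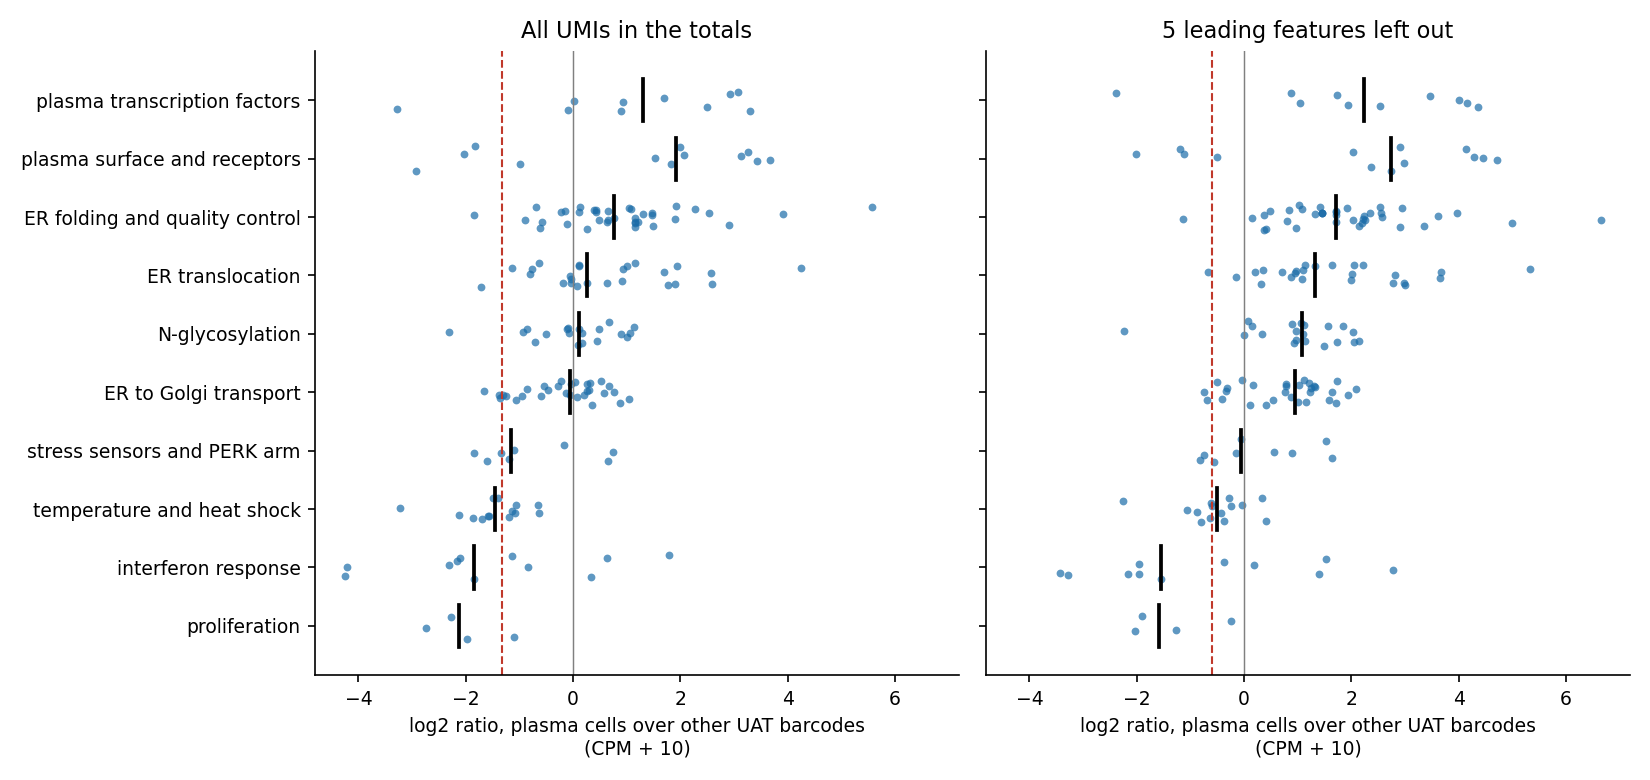
Each point is a gene of the list named at left with at least 20 CPM in either group, and the axis is the log2 ratio of CPM plus 10 in plasma cells over all other UAT barcodes. The black bar is the list's median, and the red dashed line is the median of all features tested, −1.32 with all UMIs in the totals (left) and −0.60 with the 5 leading features left out (right).

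Because the 5 leading features take 53.1% of the total in plasma cells, the CPM of every other gene is lowered there, and ratios are given on both totals. With all UMIs counted, 237 of 7649 features (3.1%) were at least 2-fold higher in plasma cells than in the other UAT barcodes and 5107 (66.8%) at least 2-fold lower. With the 5 features left out of the totals, 758 of 8021 (9.45%) were higher and 2785 (34.7%) lower, a shift of 0.67 on the log2 scale in the median over the features tested on all UMIs. The rule chose the cells on this contrast, so these counts describe the cells and test nothing. Ratios of named genes below use all UMIs and would be larger without the 5 features. The other barcodes include 31 rich in the 5 features, described below. These 31 hold plasma cell genes and so lower the ratios of those genes.

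Of 10 genes of the plasma cell regulatory program 5 were at least 2-fold higher and 1 lower (8 and 1 with the leading features left out), and the median log2 ratio was 1.31. Over all features tested the shares were 3.1% higher and 66.8% lower (9.45 and 34.7% with the leading features left out). XBP1 stood at 892 CPM against 97.2 CPM, PRDM1 at 215 against 12.8 CPM, and IRF4 at 55.6 against 1.61 CPM. POU2AF1, the coactivator OBF-1, had 23.1 against 0.24 CPM. PRDM1 was not particular to these cells, since T cells had 181 CPM. TENT5C, a poly(A) polymerase that stabilises secretory mRNA, reached 503 CPM, and T cells 495 CPM. The lower one was ZBTB20, at 32.5 against 401 CPM, and CREB3L2 (127 against 126 CPM) and BHLHE41 (65.5 against 70.7 CPM) lay near the level of other cells.

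Genes of the B cell program were low in level in plasma cells, though not all were below the other barcodes. Of its 19 measured genes only 2 reached 20 CPM in either group, EBF1 (15.4 against 363 CPM) and CD83 (17.6 against 44.7 CPM), with a median log2 ratio of −2.43, and EBF1 is also a gene of stromal cells. With the leading features left out 4 were tested, of which BANK1 and IRF8 were higher and EBF1 lower, and the median turned to 0.41. Of the 30 UMIs of IRF8, 26 were in the dendritic-marker cell. MS4A1, PAX5, CD22, FCER2, TCL1A, CXCR5 and CCR7 had no UMI. BANK1 (34 UMIs) and BLK (15) were found at low level but above the other barcodes, at 18.7 against 3.97 CPM and 8.25 against 0.14 CPM.

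The receptors of APRIL, BCMA and TACI, were high in plasma cells, and those of IL-6 were not. TNFRSF17 (BCMA) stood at 132 CPM in plasma cells and 1.15 CPM in the others, a ratio of 115 (92.4 to 144). The others include the 31 barcodes rich in the leading features, with TNFRSF17 at 97.8 CPM. TNFRSF13B (TACI) stood at 83.6 against 0.75 CPM, with 87.6 CPM (5 UMIs) in the 8 barcodes grouped as B cells. TNFRSF13C, the BAFF receptor of B cells, had 1.10 CPM. SDC1 (CD138), the surface proteoglycan used to sort plasma cells, stood at 140 against 4.02 CPM, and SLAMF7 at 102 against 1.67 CPM. CD38 had 21.5 against 0.83 CPM and FCRL5 31.9 against 1.74 CPM. CD28 (36.9 CPM) was lower than in T cells (80.0 CPM), and GPRC5D had no UMI. IL6ST, the signalling receptor of IL-6, was lower at 34.7 against 328 CPM, and its partner IL6R had 5.50 against 20.7 CPM. Of 12 genes tested in this list 8 were higher and 3 lower (9 and 3 of 13 with the leading features left out). Over all features the shares were 3.1 and 66.8% (9.45 and 34.7%).

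The ligands of these receptors came from other cells. TNFSF13 (APRIL) was at 216 CPM in macrophages (202 to 229), with a UMI in 69.75% of them, and at 10.8 CPM or below in every other group. TNFSF13B (BAFF) was at 95.9 CPM in macrophages (87.1 to 105) and at 105 CPM in the 8 barcodes grouped as B cells (38.6 to 229, from 6 UMIs). These 8 also held NK markers at 1681 CPM and neutrophil or monocyte markers at 3730 CPM. Plasma cells had 0.55 CPM of TNFSF13 and 2.75 CPM of TNFSF13B. CD86, a ligand of CD28, stood at 159 CPM in macrophages. IL6 was low throughout, at 11.1 CPM in endothelial and 11.4 CPM in stromal cells. CXCL13 had no UMI in any group.

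**Figure D5:**
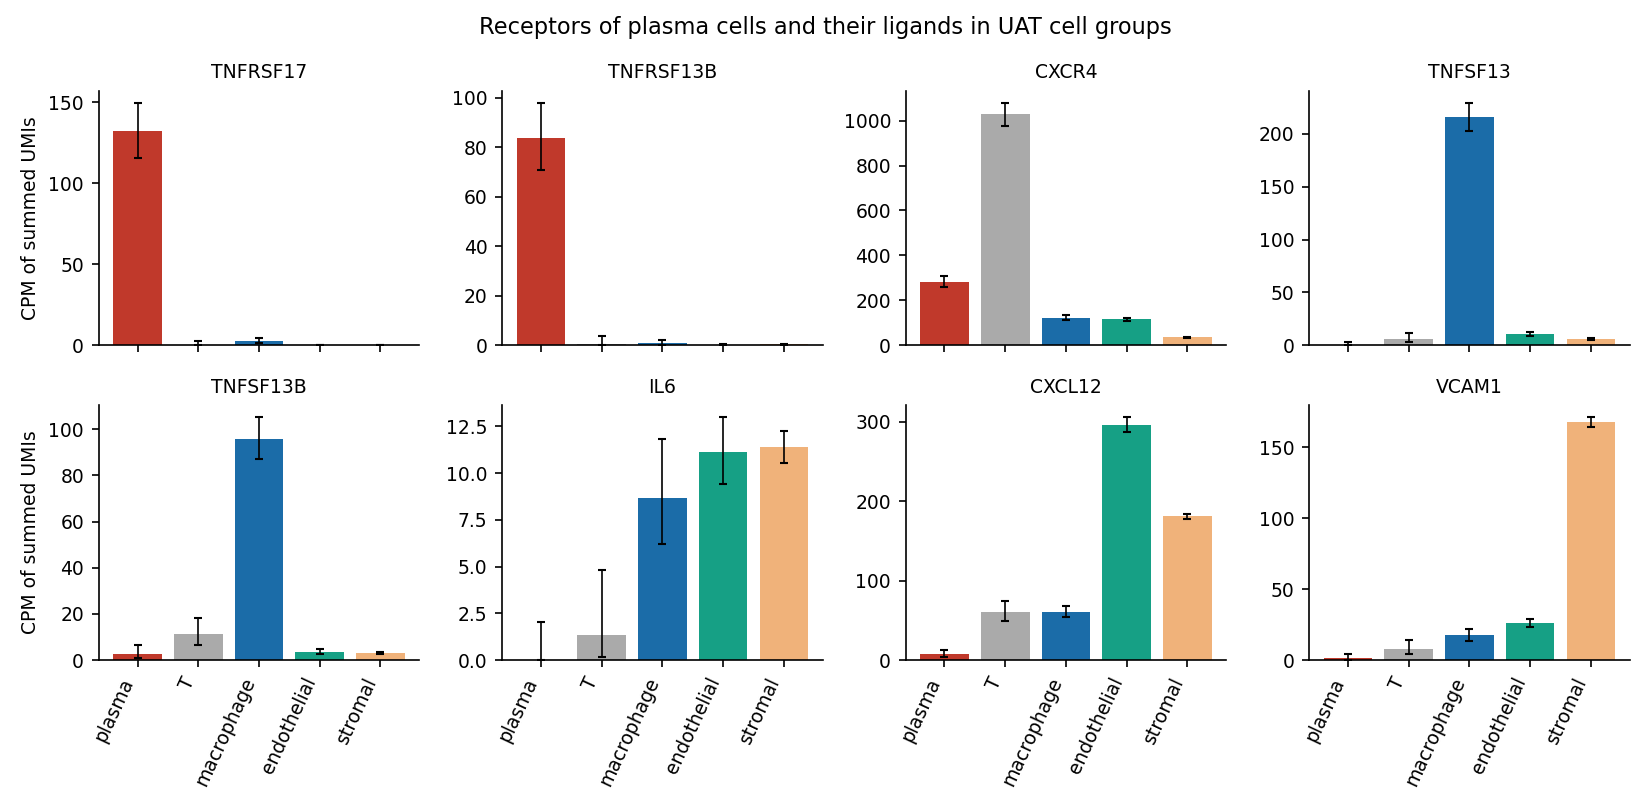
Bars give the CPM of summed UMIs of 8 receptor and ligand genes in 5 UAT cell groups, with exact Poisson 95% intervals that cover counting error only, and each panel has its own axis from 0. TNFRSF17 and TNFRSF13B are tall in plasma cells, TNFSF13 and TNFSF13B in macrophages, CXCL12 in endothelial and VCAM1 in stromal cells.

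Homing genes gave a mixed picture. CXCR4 stood at 284 CPM against 65.7 CPM in other barcodes, with a UMI in 65 of 73 plasma cells, but at 1027 CPM in T cells. Its ligand CXCL12 was at 297 CPM in endothelial cells (288 to 306) and 181 CPM in stromal cells (178 to 185). ICAM2 was at 168 against 13.7 CPM. ITGA4, the alpha chain of the VCAM1 receptor VLA-4, had 29.7 against 8.88 CPM, while its partner ITGB1 had 75.9 against 716 CPM, and VCAM1 stood at 168 CPM in stromal cells. S1PR1, the receptor for exit from tissue, had 1.10 against 42.1 CPM. CCR9, CXCR5 and CCR7 had no UMI.

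Genes of protein export were higher in part. In ER folding and quality control 18 of 37 genes exceeded a 2-fold excess and 1 a 2-fold deficit, and the median log2 ratio was 0.77 (29 and 1 of 38, median 1.72, with the leading features left out). Over all features 3.1% were higher and 66.8% lower (9.45 and 34.7% with the leading features left out). DERL3, a channel component of ER-associated degradation, led this list at 862 against 8.44 CPM, a ratio of 102 (94.1 to 111). FKBP11, a prolyl isomerase, stood at 748 against 40.1 CPM, SDF2L1 at 290 against 30.2 CPM and TXNDC5 at 589 against 93.5 CPM. In macrophages these 3 genes stood at 37.5, 200 and 48.1 CPM. HERPUD1 had 1065 against 212 CPM. The general chaperones differed less: HSP90B1 stood at 1869 against 836 CPM, HSPA5 (BiP) at 659 against 421 CPM and CALR at 380 against 446 CPM.

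In ER translocation 8 of 25 genes were higher and 2 lower, with a median of 0.27 (16 and 0, median 1.32). The shares over all features were 3.1 and 66.8% (9.45 and 34.7%). SEC11C, a catalytic subunit of signal peptidase, stood at 1240 against 55.8 CPM, whereas its paralogue SEC11A had 68.2 against 111 CPM. SSR4, of the translocon-associated complex, stood at 2201 against 357 CPM and was found in all 73 cells, from 7.72 to 54.8 per 10000 UMIs. SEC61B had 1017 against 265 CPM, and SPCS3 697 against 109 CPM. The lower 2 were SRP9 and SRP14, which bind the Alu domain of the signal recognition particle RNA, and SRP14 had 213 against 723 CPM. Both lay within 2-fold when the leading features were left out.

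N-glycosylation and ER to Golgi transport were near the level of other cells on all UMIs and above it without the leading features. In the first list 3 of 19 genes were higher and 1 lower, with a median of 0.12 (11 and 1 of 20, median 1.09). The lower one was TUSC3, with 1 UMI in plasma cells and 42.3 CPM in the others, while its paralogue MAGT1 had 69.3 against 63.1 CPM. Both encode alternative subunits of the oligosaccharyltransferase. In the transport list 1 of 30 was higher and 6 lower, with a median of −0.05, and with the leading features left out 15 were higher and none lower, with a median of 0.95, so the sign of this median depends on the total. The higher gene was KDELR2, at 257 against 120 CPM. Beside both lists, 3.1% of all features were higher and 66.8% lower (9.45 and 34.7% with the leading features left out).

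Set against T cells alone, the 4 export lists had 41 of 111 genes higher and 3 lower (84 and 0 of 112 with the leading features left out). Of all features tested against T cells, 3.81% were higher and 60.1% lower (10.7 and 23.3% with the leading features left out). Against macrophages 21 of 112 were higher and 6 lower (67 and 0), beside 3.51 and 58.4% of all features (10.6 and 25.4%). ER folding and quality control alone had 10 of 38 higher and 4 lower against macrophages, with a median of 0.06 (20 and 0, median 1.08).

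With 10 CPM added to both levels, genes of stress sensing and of the PERK arm of the unfolded protein response showed no 2-fold excess on all UMIs. DDIT3 (CHOP), its death-linked factor, had 28.1 against 106 CPM and ATF4 271 against 304 CPM. TRIB3 had no UMI, and CHAC1 had 3. The sensors EIF2AK3 (PERK) and ERN1 (IRE1) stood at 31.9 against 15.1 CPM and 30.3 against 15.7 CPM. On all UMIs EIF2AK3 passed 2-fold only without the added 10 CPM. With the 10 CPM added, none of 8 genes tested was at least 2-fold higher and 5 were lower, beside 66.8% of all features. The median was −1.15 against −1.32 for all features. With the leading features left out 2 of 9 were higher and none lower, beside 34.7% of all features lower, and the median was −0.06 against −0.60.

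Abdominal temperature is above that of the scrotum, so heat shock genes were listed too, although the only CST plasma cells are 4. In UAT plasma cells 12 of 14 tested were at least 2-fold lower than in the other barcodes and none higher, beside 66.8 and 3.1% of all features. The median was −1.45, close to that of all features (−1.32). With the leading features left out 2 were lower and none higher, beside 34.7 and 9.45% of all features. HSPB1 had 60.0 against 647 CPM and HSP90AB1 334 against 1485 CPM. Of 11 interferon genes tested 7 were lower and 1 higher, beside 66.8 and 3.1% of all features, with a median of −1.85. With the leading features left out 6 were lower and 3 higher, beside 34.7 and 9.45%, with a median of −1.54. IFI27 had 46.2 against 1036 CPM, IFITM1 21.5 against 591 CPM, and IFIT1, IFIT3 and MX1 had 2, 2 and 3 UMIs. ISG20, an RNA exonuclease, was higher on both totals, at 74.8 against 14.6 CPM, and ISG15 (33.0 against 17.8 CPM) and IFI6 (475 against 375 CPM) passed 2-fold only with the leading features left out.

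Genes of cell division gave almost no signal: MKI67 and CENPF had 1 UMI each in the 73 cells, and TOP2A, CDK1, CCNB2, BIRC5 and UBE2C had none. Among survival genes BIRC3, an inhibitor of apoptosis, stood at 442 against 26.1 CPM, PIM2, a kinase, at 23.1 against 1.44 CPM and CFLAR at 73.2 against 27.1 CPM. MCL1, on which plasma cell survival is known to depend, had 73.7 against 88.5 CPM, and BCL2 35.8 against 92.3 CPM. For MCL1 the log2 ratio changes sign with the total, from −0.24 to 0.76.

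Genes named by size of the ratio added further members. EAF2, a factor of transcription elongation, stood at 294 against 7.43 CPM, TUBB2B, a beta tubulin, at 162 against 4.26 CPM, and KCNA3, a potassium channel of lymphocytes, at 149 against 8.89 CPM, with 165 CPM in T cells. DPEP3, a dipeptidase known from testis germ cells, was at 153 against 4.76 CPM but in only 31 of 73 cells. Low ratios were ranked only among genes with a UMI in at least 50% of T cells, so that T cells express them was fixed by this choice, and genes of other cell types such as the endothelial EMCN had lower ratios. Within that set, after DCN, which the rule used, the named genes included IFITM1 (1403 CPM in T cells), S100A4 (4.40 CPM in plasma cells, 117 CPM in all others and 1924 CPM in T cells) and ZFP36L1 (114 against 2069 CPM).

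SPP1 (osteopontin), a secreted phosphoprotein of macrophages, stood at 1427 CPM in plasma cells and 552 CPM in macrophages. It came from few cells: 12 of 73 had a UMI, and 3 cells with 986, 878 and 581 UMIs held 94.3%. The cell with 986 is among those that the doublet score would have removed (score 0.84), and it held 72 UMIs of DCN. In macrophages too, only 5.25% had a UMI of SPP1. The cell with 878 is the one high in LOC107126411 alone. The gene was singled out after its values were seen.

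The rule passes over barcodes with the same leading features. Outside it, 31 UAT barcodes had at least 20% of their UMIs in the 5 leading features, a limit chosen after the values were seen, as did 66 of the 73 members. They were as deep as members, with a median of 27759 UMIs, and 29 had at least 2 UMIs of MZB1, of which 28 lay under 10 per 10000. JCHAIN was at 0 in 25 of the 31. They had DERL3 at 472 CPM (30 of 31 barcodes), XBP1 at 828 CPM (31), PRDM1 at 195 CPM (31), TNFRSF17 at 97.8 CPM (28) and SDC1 at 86.6 CPM (26), with MZB1 at 558 CPM and CD160 at 138 CPM. In them LOC102142558 was high in 12 and LOC102141751 in 13, with none high in both, and LOC102133296 was high in 23 and LOC102126084 in 2. With members they make 104 of 12352 barcodes, or 0.842%. The share of cells without JCHAIN, 29 of 73 among members and 25 of 31 here, is set in part by the rule.

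These 31 barcodes held 95.5% of the LOC102133296 UMIs outside the members. Without them the feature stood at 132 CPM in the other 12248 UAT barcodes and gave a UMI in 63.7% of them, with 126 CPM in endothelial cells, 131 CPM in stromal cells, 160 CPM in macrophages and 228 CPM in T cells. The 8 barcodes grouped as B cells stood higher, at 1313 CPM from 75 UMIs, and all 8 had one. In CST the feature was at 22.1 CPM outside the members, with a UMI in 2.17% of barcodes. That CST level still includes the 3 barcodes rich in the leading features, described below, so the 2 libraries are not on like sets. Whether free RNA had a part in these low levels was not tested.

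The 4 CST plasma cells held 26068, 4682, 2112 and 41036 UMIs. All 4 were high in LOC102133296 (54.4, 30.0, 37.7 and 48.9% of UMIs) and in LOC102142558 (12.2, 8.65, 7.62 and 14.3%), with no UMI of LOC102126084. This is the combination of 23 of 73 UAT cells. JCHAIN gave 431, 0, 6 and 0 UMIs in them, and MZB1 61, 7, 4 and 58. They also held 45, 2, 18 and 26 UMIs of the sperm protamine PRM1, a gene of germ cells, and their part in the values was not tested. With 4 cells no profile was compared between positions. A further 3 CST barcodes outside the rule had at least 20% of UMIs in the 5 features, with a median of 1742 UMIs, which makes 7 of 15001 (0.0467%).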

How the data were processed

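The authors deposited raw UMI counts (whole numbers, not normalised) of every gene in each barcode of 2 libraries. Cell Ranger 5.0.0 made them per the file headers, but version 3.0.1 and a mouse build appear in the submitters' processing notes. The 28845 feature names are macaque, the build behind the counts is not given in the sources used here, and no coordinates are printed. Of 11528 features with only a LOC number, 5093 were in a RefSeq gene table (the species' telomere-to-telomere assembly), which gave names and neighbours only, and 721 received a symbol.

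Plasma cells, their rule, the gene lists and the comparison groups were chosen with earlier results of these data known. Barcodes with at least 500 genes were kept. Groups were assigned in order by UMIs outside the members: B cells (MS4A1 at least 2), T cells (CD3 genes at least 2), macrophages (C1Q genes at least 2 UMIs and 10 per 10000), endothelial cells (PECAM1, VWF and CDH5 at least 3 UMIs and 5 per 10000), all with DCN under 30 per 10000, and stromal cells (DCN at least 30). Doublets were scored against simulated pairs and removed, at 0.8% per 1000 barcodes, only as an alternative.

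UMIs were summed per group and given as CPM. Ratios have exact conditional binomial 95% intervals, levels exact Poisson intervals and shares Clopper-Pearson intervals. PCR and sampling between animals are not covered. Log2 ratios add 10 CPM, features with at least 20 CPM in either group were tested for size, and 2-fold was the limit. With 1 library per position no p-value was made. Where a share is 0, up to 3 counts of the total are allowed.

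Named genes were the members of the lists and markers, the 30 genes of highest ratio by its lower bound (at least 100 CPM and 30 UMIs in members, a UMI in 25% of them) and the 10 of lowest ratio by its upper bound (at least 100 CPM in others, a UMI in 50% of T cells), without mitochondrial, ribosomal and haemoglobin genes. The interval step was tested on simulated data at this depth (13397 genes): with no change simulated, 95.7% of intervals contained the simulated ratio. Intervals excluded 1 in the right direction for 89.0% of simulated 2-fold changes and 97.0% of 4-fold ones.

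Alternatives were other minimum gene numbers, other limits on MZB1, JCHAIN with MZB1, DCN and mitochondrial UMIs, doublet removal, means of per-cell CPM, pseudocounts of 1 and 50 CPM, a fold of 1.5, no minimum level, other comparison cells, and members left out. Promoter motifs were planned and not analysed here. Python 3.11.15 with numpy 2.4.6, scipy 1.17.1, pandas 2.3.3, scikit-learn 1.9.0 and matplotlib 3.10.9 was used.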

Additional observations from a re-analysis of the deposited data

How the results depend on the processing

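No paired analysis was possible because each position had 1 library. Requiring at least 30 UMIs of JCHAIN and MZB1 per 10000 left 37 plasma cells, 0.30% of UAT barcodes, of which 86.5% had at least 10 JCHAIN UMIs per 10000. Adding the barcodes with at least 20% of UMIs in the 5 leading features gave 0.842%. In the 4 export lists, genes at least 2-fold higher and lower than in the other barcodes numbered 30 and 10. They numbered 71 and 2 with the leading features left out of the totals and 19 and 2 with a pseudocount of 50 CPM. Genes lower numbered 6 with means of per-cell CPM, 3 against T cells, 6 against macrophages and 22 at a fold of 1.5. Over all features the counts of 237 and 5107 became 758 and 2785 with the leading features left out and 107 and 1580 with a pseudocount of 50 CPM, and 365 were higher at a fold of 1.5. The median of the 2 B cell genes tested turned to 0.41, over 4 genes, with the leading features left out. Of 480 values of genes named by ratio, 3 changed sign, all against other cells: KCNA3 (−0.14) and IL2RG (−1.44) against T cells, and LAT2 (−0.42) against macrophages. Leaving out the leading features, the dendritic-marker cell or the 31 barcodes rich in those features, and adding those barcodes, were choices made after the data were seen. At least 2 UMIs of other lineages were found in 62 members, and leaving them out kept 11. Depth limits genes under about 20 CPM, and free RNA cannot be told apart from low expression.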
